A study of Mus musculus and Homo sapiens with 15 samples.

Results

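The genes described here are 10 mouse genes that act in immune checkpoints or in regulatory T cells. They were taken by symbol from a list, without a cut on any value: the receptors Pdcd1, Ctla4, Lag3, Havcr2 and Tigit, the ligands Cd274 and Pdcd1lg2, the transcription factors Tox and Foxp3, and the ectoenzyme Entpd1. The list was chosen with earlier results of these data known, so its counts and medians beside all genes are description only. All 10 were present among the 52340 genes of the table for thymus tumours and among the 56691 genes of the table for grafted tumours. RNA sequencing was used to compare T-cell lymphomas with and without arsenic trioxide (ATO), an arsenic compound used against leukaemia. W/W mice carry the R282W change of p53 on both alleles, and their thymus tumours were taken on day 150 after birth. There were 3 libraries from mice given water, 3 from ATO-treated mice labelled as in tumour progression and 3 from ATO-treated mice labelled as in tumour regression, called water, progressing and regressing below. Because every progressing and regressing tumour had received ATO, treatment and outcome cannot be told apart in a comparison with water.

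Grafted tumours came from C57 mice labelled as wild type and as a CDX model, and the labels do not name the grafted cells. There were 2 grafts after phosphate-buffered saline (PBS) and 2 after ATO. The human U937 libraries of the series were not used here. The labels number the libraries of a group without saying what the number marks, so p-values measure the spread between these samples.

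Checkpoint receptors are brakes on activated T cells. PD-1, the product of Pdcd1, is engaged by PD-L1 (Cd274) and PD-L2 (Pdcd1lg2) on antigen-presenting or tumour cells, and CTLA-4 competes with CD28 for the ligands CD80 and CD86. Regulatory T cells, defined by the transcription factor Foxp3, carry CTLA-4 and the enzyme CD39 (Entpd1), which breaks down extracellular ATP. In the thymus, TOX is needed for the CD4 lineage, while in chronically stimulated T cells it goes together with lasting expression of PD-1, LAG-3, TIM-3 (Havcr2) and TIGIT.

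The 2 ligand genes lie side by side on chromosome 19 in GRCm38, the build of the W/W table, with 22823 bases between Cd274 (29367455 to 29388095) and Pdcd1lg2 (29410919 to 29471161). Ctla4 (chromosome 1, 60887000 to 60915832) lies between Cd28 and Icos, which encode its activating relatives, and Lag3 (chromosome 6, 124904361 to 124911705) is 16139 bases from Cd4. The 250 bases before the RefSeq start of the ligand genes and of 2 receptor genes are shown, because the ligands are neighbours with different start regions and because the interferon genes of the pathway are described further on. The sequences are from RefSeq on GRCm38.p6, read 5′ to 3′ on the strand of the gene. Capitals mark a match to an element bound by interferon regulatory factors, searched as GAAANNGAA on both strands.
Cd274, chr19:29367188-29367437, plus strand: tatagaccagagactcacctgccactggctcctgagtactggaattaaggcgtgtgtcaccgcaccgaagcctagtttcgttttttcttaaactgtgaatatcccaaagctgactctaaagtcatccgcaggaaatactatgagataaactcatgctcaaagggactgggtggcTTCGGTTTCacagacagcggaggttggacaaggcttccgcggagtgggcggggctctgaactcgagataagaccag
Pdcd1lg2, chr19:29410669-29410918, plus strand: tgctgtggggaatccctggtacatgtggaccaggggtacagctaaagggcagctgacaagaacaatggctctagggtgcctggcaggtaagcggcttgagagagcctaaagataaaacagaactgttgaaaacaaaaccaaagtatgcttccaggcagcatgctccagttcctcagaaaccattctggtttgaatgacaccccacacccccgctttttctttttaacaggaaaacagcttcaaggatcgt
Ctla4, chr1:60908775-60909024, plus strand: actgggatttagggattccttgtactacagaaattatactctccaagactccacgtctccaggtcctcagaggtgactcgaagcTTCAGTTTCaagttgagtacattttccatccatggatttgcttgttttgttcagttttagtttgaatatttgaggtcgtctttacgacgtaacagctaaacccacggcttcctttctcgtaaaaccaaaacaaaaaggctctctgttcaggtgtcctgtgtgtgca
Pdcd1, chr1:94052554-94052803, minus strand: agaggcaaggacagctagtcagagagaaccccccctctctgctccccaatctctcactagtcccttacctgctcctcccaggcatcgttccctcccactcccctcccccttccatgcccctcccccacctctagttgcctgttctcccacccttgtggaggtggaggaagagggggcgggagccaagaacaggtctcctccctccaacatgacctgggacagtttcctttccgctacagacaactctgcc

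Promoter entries were found for 8 of the 10 genes. The interferon element was present as TTCGGTTTC in Cd274, at bases 76 to 68 before the start, and as TTCAGTTTC in Ctla4, at bases 166 to 158. A second element, the gamma-activated sequence searched as TTCNNNGAA on both strands, was present in a start region of Foxp3 as TTCCAAGAA. Of 32851 mouse promoter windows of this length, 7.13% held the first element and 7.02% the second. A match is a run of letters and not evidence that a factor was bound.

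In progressing tumours all 10 genes had a fitted log2 fold change below 0 against water, with a median of -2.27 where the median of the 18119 genes tested was -0.04. Of the 10, 3 fell in the quasi-likelihood test of edgeR, with p-values adjusted by Benjamini-Hochberg and a threshold of 0.05: Pdcd1, Tox and Lag3. Over all genes tested 7.13% were called lower in this comparison and 4.77% higher. In 5 genes, Pdcd1, Lag3, Havcr2, Tox and Entpd1, every progressing library was below every water library, which held for 14.7% of all genes. In regressing tumours none of the 10 passed against water, and against progressing tumours 4 rose, Pdcd1, Lag3, Tox and Foxp3. Both comparisons with water use the same 3 water libraries.

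**Figure D1:**
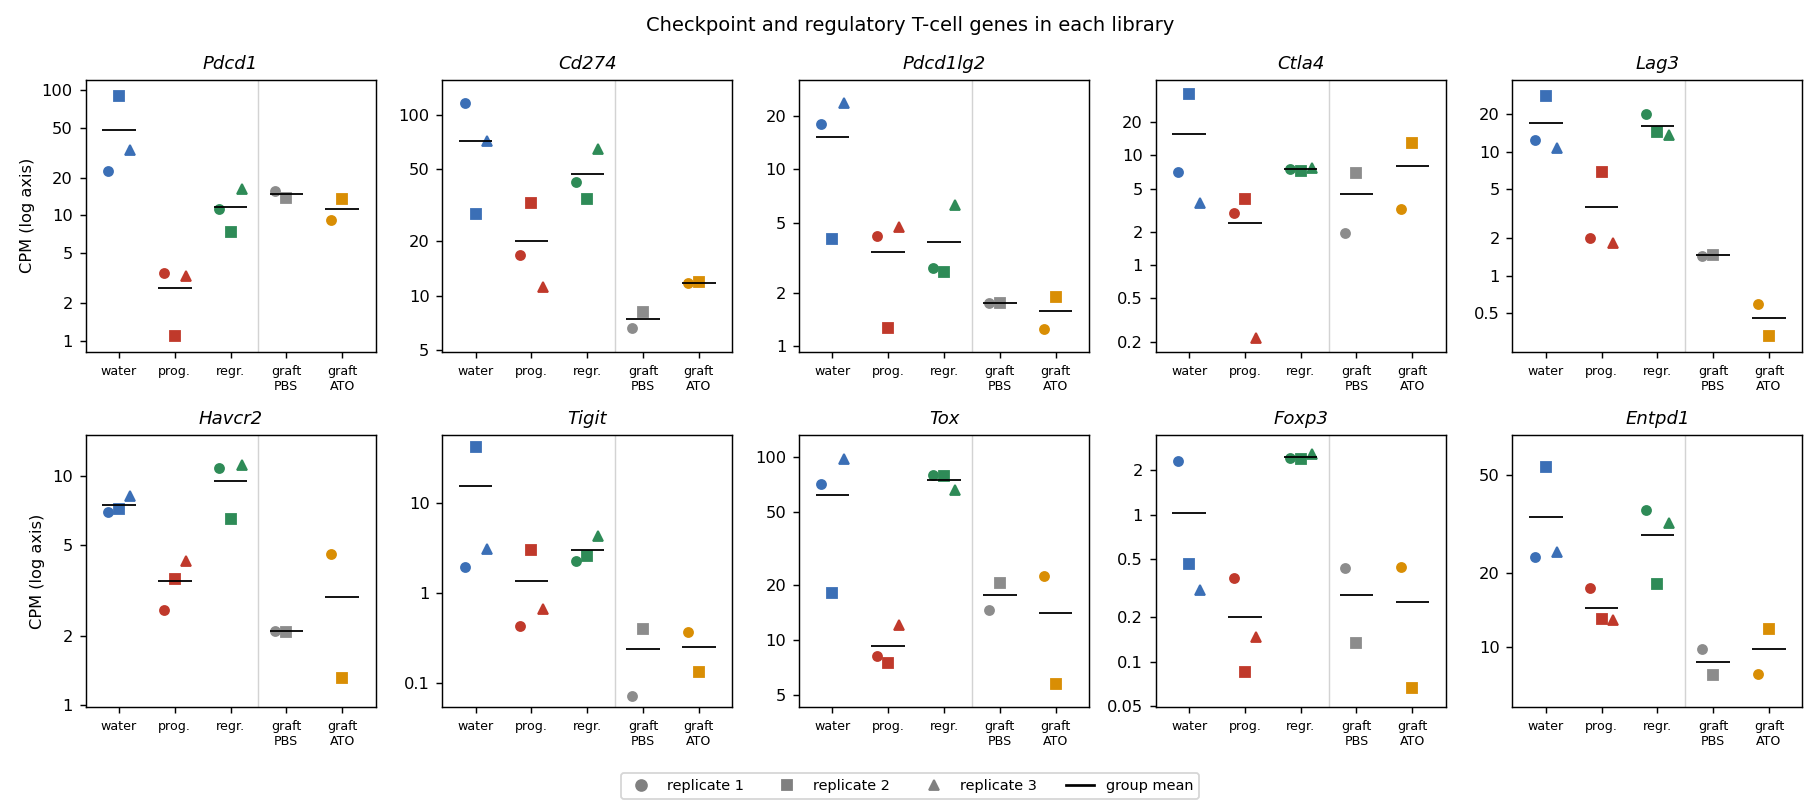
Level in CPM (read counts scaled to library size, log axis) of the 10 genes in each library, with replicates as symbols and group means as lines, W/W tumours left and grafts right of the grey line. The progressing libraries of Pdcd1 sit between 1.10 and 3.45 CPM and those of Tox between 7.52 and 12.1 CPM, below all water and regressing libraries of the same gene.

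Total counts were 12800367 to 17550594 in the W/W libraries and 12922147 to 15637644 in the grafts. TMM factors, which scale libraries for composition, were 0.747 in water replicate 2 and 0.794 in progressing replicate 2, against 1.03 to 1.16 in the other W/W libraries. The mitochondrial share was 2.08% to 8.83% in W/W and 0.521% to 5.98% in the grafts. The labelled T-cell tumour was checked against T-lineage genes: the summed level of 13 of them was 2238 to 3174 CPM in water, 4244 to 5592 in progressing, 5252 to 9855 in regressing and 4973 to 8861 in graft libraries. Rag1, which cuts antigen receptor genes in immature lymphocytes, was at 0.617 to 2.29 CPM in water and at 258 to 3393 in the ATO-treated W/W tumours, so a defining gene of cortical thymocytes was near 0 in the water tumours. In bulk tumour RNA, fewer cells of a type and less RNA per cell cannot be told apart.

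Among the 5 receptor genes, Pdcd1 had the largest fitted difference in progressing against water. Water tumours had 22.4, 89.3 and 33.0 CPM of it, progressing tumours 3.45, 1.10 and 3.31, and regressing tumours 11.1, 7.41 and 16.1. The 3 groups did not overlap, with water highest, regressing between and progressing lowest. Pdcd1 was lower in progressing than in water tumours, with a log2 fold change of -4.19 (SE 0.68, adjusted p = 0.00583 in edgeR), which is 18.3-fold. Each of the 6 fits with a library removed kept this call, and removing water replicate 2 gave -3.35. Between the outcomes Pdcd1 rose by 2.13 (SE 0.63, edgeR adjusted p = 0.0499). That rise was at the threshold and was lost in each of the 6 fits that left out a library, with adjusted p from 0.0697 to 0.128, and under limma-voom (adjusted p = 0.110).

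Lag3 encodes a receptor for MHC class II. It was at 12.5, 28.2 and 10.7 CPM in water, 2.03, 6.85 and 1.84 in progressing and 20.2, 14.5 and 13.7 in regressing tumours. The progressing libraries were below all others, while water and regressing overlapped. Lag3 fell by 2.26 in progressing against water (SE 0.64, edgeR adjusted p = 0.0432) and rose by 2.18 in regressing against progressing (SE 0.63, edgeR adjusted p = 0.0480). Progressing replicate 2 was the highest of its group, and without it the values were -3.07 and 3.09. Both calls held in that fit and were lost in each of the other 5. The fall was also lost when the regressing libraries were kept out of the model (adjusted p = 0.109).

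Havcr2, which encodes TIM-3, was at 6.96, 7.18 and 8.15 CPM in water, 2.59, 3.55 and 4.26 in progressing and 10.8, 6.49 and 11.1 in regressing tumours. The progressing libraries were again below all others. The log2 fold changes of -1.10 in progressing against water (SE 0.48, edgeR adjusted p = 0.164) and 1.45 in regressing against progressing (SE 0.49, edgeR adjusted p = 0.0731) did not pass.

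Ctla4 and Tigit were spread widely by 1 library. Ctla4 was at 7.03, 36.2 and 3.70 CPM in water, 3.02, 4.06 and 0.221 in progressing and 7.55, 7.27 and 7.65 in regressing tumours. Tigit, a receptor for the nectin-like protein PVR, was at 1.93, 41.1 and 3.09 CPM in water, 0.432, 2.96 and 0.662 in progressing and 2.23, 2.54 and 4.29 in regressing tumours. Water replicate 2 held the highest value of both genes, and water and progressing libraries overlapped. The log2 fold changes in progressing against water, -2.68 for Ctla4 (SE 1.01) and -3.51 for Tigit (SE 1.20), did not pass (edgeR adjusted p = 0.109 and 0.0820). Between the outcomes they were 1.62 and 1.17 (edgeR adjusted p = 0.277 and 0.498).

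Of the ligands of PD-1, Cd274 was at 115, 28.1 and 71.1 CPM in water, 16.8, 32.5 and 11.2 in progressing and 42.5, 34.3 and 64.4 in regressing tumours. Every regressing library was above every progressing library, and water replicate 2 lay within the progressing range. The log2 fold change was -1.83 in progressing against water (SE 0.55, edgeR adjusted p = 0.0547) and 1.22 in regressing against progressing (SE 0.54, edgeR adjusted p = 0.149), neither past the threshold. Without water replicate 2 or progressing replicate 2 the fall passed, at -2.22 and -2.30. Its neighbour Pdcd1lg2 was at 18.0, 4.05 and 23.8 CPM in water, 4.19, 1.27 and 4.70 in progressing and 2.78, 2.61 and 6.26 in regressing tumours. Here progressing and regressing libraries overlapped, and water replicate 2 was again the lowest of its group. Pdcd1lg2 had the smallest difference of the 10 genes between the outcomes, 0.19 (SE 0.74, edgeR adjusted p = 0.879), and -2.17 in progressing against water (SE 0.77, edgeR adjusted p = 0.0903), which passed at -2.58 without water replicate 2.

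Tox encodes an HMG-box transcription factor. It was at 71.4, 18.0 and 97.5 CPM in water, 8.14, 7.52 and 12.1 in progressing and 80.1, 78.8 and 66.1 in regressing tumours. The progressing libraries were the lowest, and the regressing libraries lay close together inside the wide water range. Tox fell by 2.75 in progressing against water (SE 0.53, edgeR adjusted p = 0.0113), 6.74-fold, and rose by 3.02 in regressing against progressing (SE 0.54, edgeR adjusted p = 0.0132), 8.11-fold. The fall held in each of the 6 fits with a library removed. The rise held in 5 of them and was lost without regressing replicate 1 (adjusted p = 0.0511).

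Foxp3, the lineage factor of regulatory T cells, was the least abundant of the 10, with 36, 6 and 5 counts in water, 6, 1 and 2 in progressing and 39, 34 and 39 in regressing tumours. On the CPM scale this was 2.32, 0.458 and 0.309, then 0.370, 0.0845 and 0.147, then 2.41, 2.40 and 2.57. The regressing libraries were above all others and nearly equal, and the water libraries split, with replicate 1 near the regressing level. Foxp3 rose by 3.52 in regressing against progressing (SE 0.96, edgeR adjusted p = 0.0389), 11.5-fold. Without progressing replicate 1 this was 4.30 and still passed (adjusted p = 0.0499), and without any 1 of the other 5 libraries the call was lost. Set against water, the log2 fold change of 1.25 did not pass (SE 0.85, edgeR adjusted p = 0.360). Exons of Foxp3 share 266 bases with Ppp1r3f, 590 with Ccdc22 and 373 with Gm36995 on the opposite strand. They share 853 with Flicr on its own strand, so the few reads of Foxp3 are uncertain. Cd274 shares 511 exonic bases with an antisense transcript and Tox 260, and reads in these bases are likewise uncertain. The antisense transcripts had 723 and 15 counts summed over the 9 W/W libraries. Cd274 itself had 153 to 1788 counts a library and Tox 89 to 1579.

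Entpd1, which encodes CD39, was at 23.2, 53.5 and 24.3 CPM in water, 17.5, 13.0 and 12.9 in progressing and 35.9, 18.0 and 31.8 in regressing tumours. The progressing libraries were the lowest, by a narrow margin to regressing replicate 2. The log2 fold changes, -1.22 in progressing against water (SE 0.44, edgeR adjusted p = 0.0940) and 0.98 in regressing against progressing (SE 0.43, edgeR adjusted p = 0.150), did not pass.

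Regressing and progressing tumours, which had both received ATO, were thus separated in 8 of the 10 genes, all but Pdcd1lg2 and Tigit, with every regressing library higher. This held for 21.4% of all genes tested. The median log2 fold change of the 10 was 1.54, against -0.07 over all genes, and 4 of 10 rose where 6.45% of all genes were called higher and 6.18% lower. All 4 were lost when regressing replicate 1 was left out, a fit in which 177 genes of the whole table passed, against 2289 with all libraries.

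**Figure D2:**
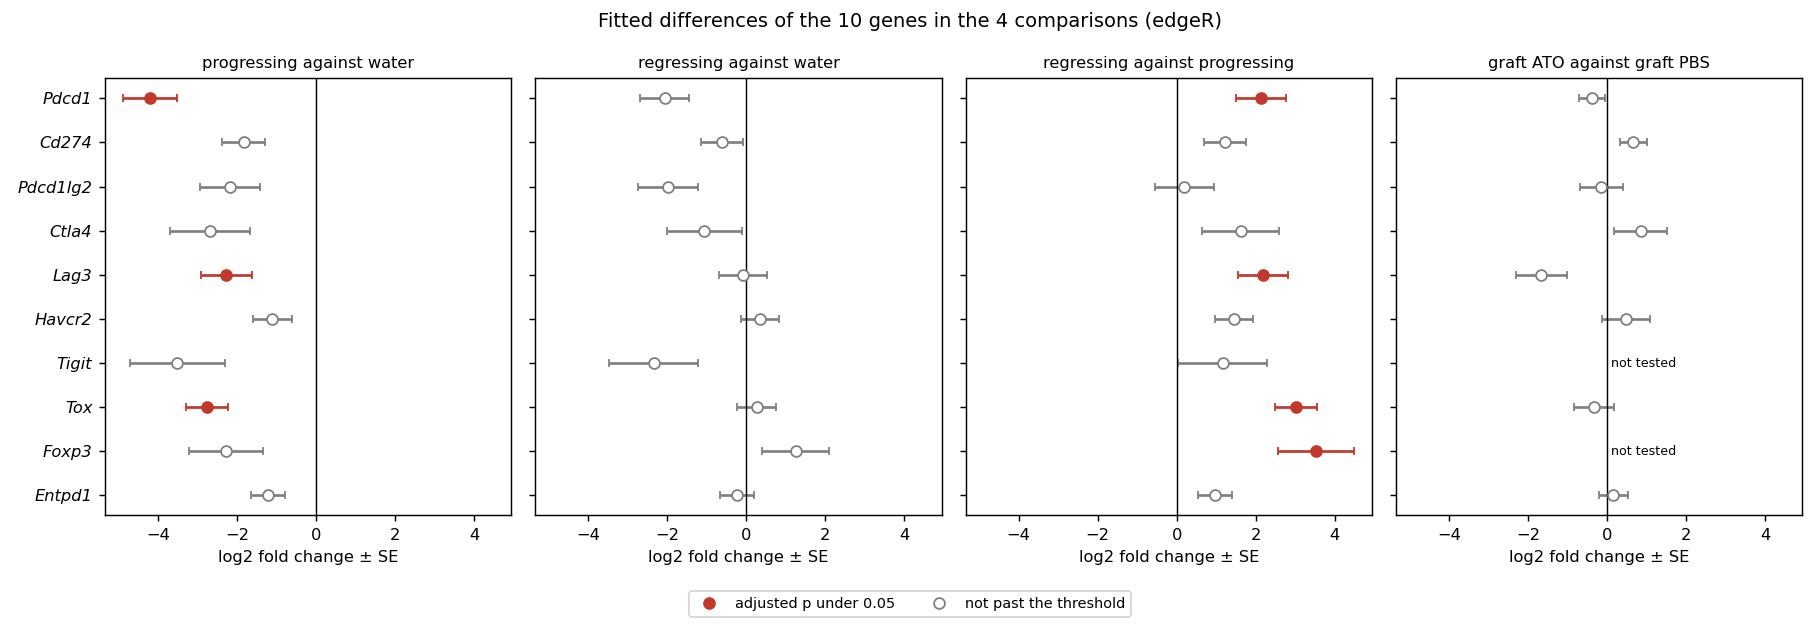
Fitted log2 fold changes of the 10 genes with their standard errors in the 4 comparisons, filled where the adjusted p of edgeR's quasi-likelihood test was under 0.05. All 10 points lie below 0 in progressing against water and above 0 in regressing against progressing, where 3 and 4 are filled, and none is filled in the other comparisons.

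In regressing against water 0 of the 10 passed edgeR's test, where 7.70% of all genes did, 3.13% higher and 4.57% lower. At an unadjusted p under 0.05 there were 2, Pdcd1 and Pdcd1lg2. DESeq2 called 2 and limma-voom 0. Pdcd1 stood at -2.06 (SE 0.62, edgeR adjusted p = 0.0645), with the regressing libraries all below the water libraries. Foxp3 was the other gene whose groups were apart, and such separation held for 40.1% of all genes. Lag3, Havcr2, Tox and Entpd1 had log2 fold changes between -0.24 and 0.35, and those of Lag3, Tox and Entpd1 changed sign without water replicate 2. The median of the 10 was -0.42, against -0.11 over all genes.

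Water replicate 2 stood apart from the other water libraries in opposite directions within the 10 genes. It was the highest water library for Pdcd1, Ctla4, Lag3, Tigit and Entpd1 and the lowest for Cd274, Pdcd1lg2 and Tox. Its summed level of 8 natural killer and cytotoxic lymphocyte genes was 1192 CPM, against 42.3 in the lowest water library, and Gzmk, a granule protease of such cells, was at 265 CPM there and at 1.42 and 0.862 in the others. Whether these values have a part in the receptor levels was not tested.

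Markers of several other cell types moved with the 10 genes. Over all genes tested, 7.13% were called lower and 4.77% higher in progressing against water. In regressing against progressing 6.45% were called higher and 6.18% lower, and in regressing against water 3.13% higher and 4.57% lower. Summed over 7 dendritic-cell genes, the level was 132 to 175 CPM in water, 7.03 to 26.9 in progressing and 57.9 to 108 in regressing libraries. The sums of the groups were thus apart in the same order as Pdcd1, but single genes were not all so. In regressing against water 0 of the 7 were called, and 5 had a fitted log2 fold change above 0, with a median of 0.18. Of these 7 genes, 5 were called lower in progressing against water and 5 higher in regressing against progressing. The 6 B-cell genes summed to 71.9 to 3371 CPM in water, 6.23 to 34.6 in progressing and 103 to 150 in regressing libraries, with 6 called lower in the first comparison and 3 higher in the second. For the 8 cytotoxic genes the ranges were 42.3 to 1192, 22.9 to 143 and 77.2 to 92.5 CPM, with 5 of the 7 tested called lower and then 4 higher, and up to 4 of the 8 at 0 in a progressing library. Of 6 thymic epithelium genes, 4 were called lower and then 4 higher. The 6 fibroblast genes went the other way between the outcomes, at 737 to 1323 CPM in progressing and 121 to 415 in regressing libraries, with 0 called in progressing against water and 3 called lower in regressing against progressing. In regressing against water 3 of the 6 were called lower. The 5 adipocyte genes summed to 37.9 to 142 CPM in water and 119 to 1249 in progressing tumours, with 0 called, and to 134, 533 and 4543 in regressing tumours, with 3 called higher against water and 1 against progressing.

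The T-lineage sum moved otherwise, being lowest in water, and the 8 macrophage genes overlapped in all 3 groups at 594 to 1900, 224 to 932 and 384 to 630 CPM. Of the 13 T-lineage genes, 2 were called higher and 2 lower in progressing against water. In regressing against water 4 of them were called higher and 0 lower. The 6 cortical thymocyte genes summed to 19.9 to 26.2 CPM in water, 968 to 2054 in progressing and 2673 to 5482 in regressing libraries. Of these 6, 5 were called higher in progressing against water, 6 in regressing against water and 0 between the outcomes. The part of the cortical thymocyte, dendritic, B-cell, cytotoxic, epithelial, fibroblast and adipocyte genes in the differences of the 10 was not tested. T-lineage genes did not all move alike. Cd3e was at 194, 108 and 227 CPM in water and 167, 232 and 224 in progressing tumours. Lck was at 301, 516 and 325 CPM in water and 941, 971 and 751 in progressing tumours. Scaling the libraries on Cd3d, Cd3e, Cd3g, Cd247 and Lck in place of all genes gives the differences relative to the joint level of these T-lineage genes. It moved the median of all genes to -0.68 in progressing against water, -1.13 in regressing against water and -0.45 in regressing against progressing, and the calls from 865 higher and 1292 lower to 430 and 2688, from 568 and 828 to 333 and 5834, and from 1169 and 1120 to 738 and 1627. On this scale the 10 genes were at -4.81 to -1.73 in progressing against water, all below the shifted median, and 8 passed. In regressing against progressing only Tox of the 10 then passed, at 2.58 (edgeR adjusted p = 0.0177), and Pdcd1lg2 changed sign to -0.12. In regressing against water 3 passed, all lower: Pdcd1, Pdcd1lg2 and Tigit, at -3.04, -2.83 and -3.36.

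**Figure D3:**
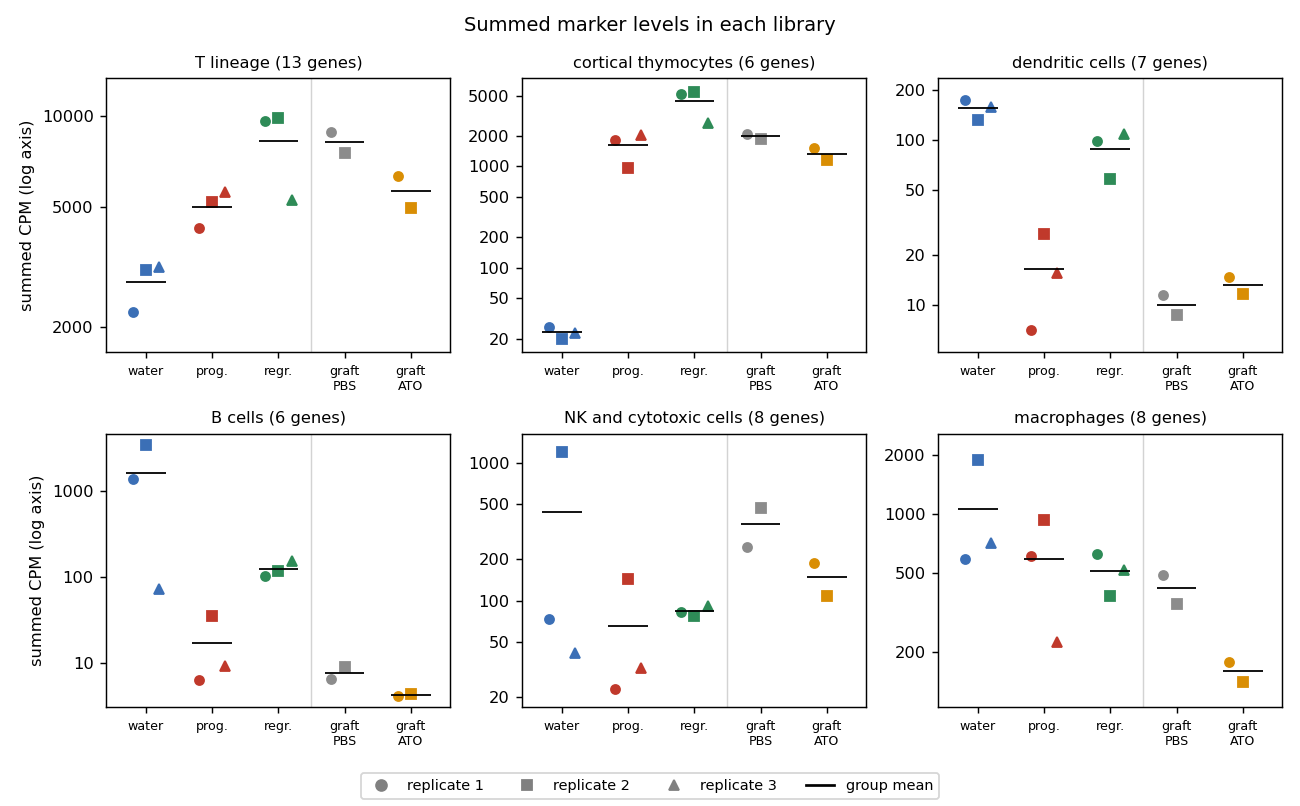
Summed CPM (log axis) of 6 marker lists in each library, with replicates as symbols and group means as lines. Dendritic-cell genes sit at 7.03 to 26.9 CPM in progressing libraries, below the 57.9 to 108 CPM of regressing ones, while the cortical thymocyte genes are lowest in water, at 19.9 to 26.2 CPM.

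Among 26 partner genes of the checkpoints, 25 were tested. In progressing against water 10 fell and 1 rose, where 7.13% of all genes were called lower and 4.77% higher. Their median log2 fold change was -1.45, against -0.04 over all genes. Icos, a costimulatory relative of CD28, averaged 545 ± 526 CPM in water and 3.41 ± 1.46 in progressing tumours (SD, n = 3 each, log2 fold change -7.32, SE 1.49, edgeR adjusted p = 0.0134). Water replicate 2 had 4.35 CPM of it, within the progressing range of 1.91 to 4.82, and the call was lost without progressing replicate 3 and under limma-voom (adjusted p = 0.212). Cd226, the activating counterpart of TIGIT, fell by 6.64 (SE 1.15, edgeR adjusted p = 0.00745) and kept its call in each of the 6 fits with a library removed. Icosl, the ligand of ICOS, fell by 3.67, and Pvrig, another receptor of the nectin family, was at the floor of 3 counts or fewer in every progressing library and at least 6.61-fold lower. Both lost their call without progressing replicate 1 or 3 or water replicate 1, and Pvrig also without water replicate 3. Neither passed when the regressing libraries were kept out (edgeR adjusted p = 0.0595 for Icosl and 0.0849 for Pvrig), nor did Icosl under limma-voom (adjusted p = 0.0642).

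Between the outcomes 3 of the 25 partners rose in regressing tumours and 1 fell, where 6.45% of all genes were called higher and 6.18% lower. Cd28 was at 34.6 ± 13.0 CPM in progressing and 272 ± 55.0 in regressing tumours (n = 3 each, log2 fold change 2.97, SE 0.64, edgeR adjusted p = 0.0207). Tnfrsf14, whose product HVEM binds BTLA, rose by 3.09 and Cd226 by 4.19. Cd276, a B7 relative also called B7-H3, fell by 2.88 and was the one partner lower in regressing tumours. Leaving out a library ended the call of Cd226 in 5 of 6 fits, of Cd28 and Cd276 in 4 and of Tnfrsf14 in 3, in each case including the fits without regressing replicate 1 or 2, and limma-voom did not call Cd226 (adjusted p = 0.120). Btla and Cd160, both receptors for HVEM, fell by 2.52 and 2.65 in regressing against water, and Pvr, the ligand of TIGIT and CD226, rose by 2.14, in a comparison with 4.57% of all genes called lower and 3.13% higher. These were lost without regressing replicate 1 or 2 and, but for Pvr, also without regressing replicate 3 or water replicate 1 or 2. Scaled on T-lineage genes Pvr did not pass (adjusted p = 0.0770), and under limma-voom Btla and Cd160 did not (adjusted p = 0.0518 and 0.0710).

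Of 16 further genes of regulatory T cells, 5 fell in progressing against water and 0 rose, where 7.13% of all genes were called lower and 4.77% higher. Their median log2 fold change was -0.78, against -0.04 over all genes. Ikzf2, which encodes the factor Helios, was at 308 ± 160 CPM in water and 26.6 ± 4.75 in progressing tumours (n = 3 each, log2 fold change -3.53, SE 0.46, edgeR adjusted p = 0.00247), and this call held in each of the 6 fits with a library removed. Izumo1r, a folate receptor relative found on regulatory T cells, fell by 4.88 and Il2rb, a chain of the interleukin-2 receptor, by 4.56. The chemokine receptor gene Ccr8 was at the floor in progressing tumours and at least 106-fold lower. Its water libraries were at 13.3, 0 and 56.6 CPM, and without water replicate 3 the bound was 30.4-fold. These 3 calls were lost without progressing replicate 3, that of Ccr8 also without progressing replicate 1 or 2 and that of Izumo1r also without progressing replicate 1 or water replicate 1. Under limma-voom Ccr8 did not pass (adjusted p = 0.307). Foxp3 had 36, 6 and 5 counts in the water libraries, where Ikzf2 was at 381, 124 and 419 CPM. Whether the genes of this list mark regulatory T cells in these tumours was not tested.

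Il2ra and Ikzf2 rose in regressing against progressing tumours, 2 of the 16 genes, where 6.45% of all genes were called higher. Il2ra, which encodes CD25 of the interleukin-2 receptor, was at 7.38 ± 4.06 CPM in water, 4.46 ± 2.87 in progressing and 40.8 ± 6.37 in regressing tumours (n = 3 each). Its regressing libraries were above all others, as those of Foxp3 were. The list as a whole did not go this way against water. Of the 16 genes, 5 had a fitted log2 fold change above 0 in regressing against water. Their median was -0.92, against -0.11 over all genes. There 1 was called higher and 0 lower, where 3.13% of all genes were called higher and 4.57% lower. The 16 genes summed to 699 to 1314 CPM in water and 331 to 393 in regressing libraries. Il2ra rose by 3.19 against progressing (SE 0.68, edgeR adjusted p = 0.0199) and by 2.46 against water (SE 0.65, edgeR adjusted p = 0.0469). The first call was lost without progressing replicate 3 or any regressing replicate, and the second in all 6 fits. Scaled on T-lineage genes, the difference from water did not pass (adjusted p = 0.119). CD25 is also made by immature thymocytes, whose gene Rag1 was highest in the same libraries, and the part of such cells was not tested.

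Of 15 transcription factors of exhausted and memory T cells, 7 fell in progressing against water and 0 rose, where 7.13% of all genes were called lower and 4.77% higher. Their median log2 fold change was -1.60, against -0.04 over all genes. Eomes, at 32.0 ± 22.9 CPM in water and 0.528 ± 0.461 in progressing tumours (n = 3 each), fell by 5.87 (SE 1.11, edgeR adjusted p = 0.0105). Bach2, a repressor that keeps T cells from maturing into effectors, fell by 4.04, and Batf, a partner of AP-1 and IRF factors, by 3.23. These 3 kept their calls in each of the 6 fits with a library removed. Tbx21, the T-bet gene, fell by 3.37, which was lost without progressing replicate 1 or 2. Between the outcomes 1 of the 15 rose in regressing tumours, where 6.45% of all genes were called higher. In regressing against water 1 of the 15 fell, where 4.57% of all genes were called lower. Neither count sets the list apart from all genes. The rise was that of Bach2, by 3.28 (SE 0.59, edgeR adjusted p = 0.0132), and the fall that of Eomes, by 3.77 (SE 0.99, edgeR adjusted p = 0.0451). The first was lost without regressing replicate 1, and the second in 4 of 6 fits, those without water replicate 2 or 3 or regressing replicate 1 or 2, and with the progressing libraries kept out (adjusted p = 0.0537).

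Interferon gamma induces PD-L1, and 10 genes of its pathway are reported. Ifng itself had 11, 40 and 26 counts in water, 0 in each progressing library and 10, 1 and 12 in regressing tumours. Against the floor of 3 counts per library it was at least 8.15-fold lower in progressing than in water tumours and at least 2.25-fold higher in regressing than in progressing tumours. Without water replicate 2 the first bound was 5.27-fold, and without regressing replicate 3 the second was 1.57-fold. Irf2, a factor that binds the interferon element, was at 50.4, 67.7 and 43.6 CPM in water, 19.5, 8.20 and 12.3 in progressing and 59.5, 56.7 and 52.9 in regressing tumours. The progressing libraries were below all others. Irf2 fell by 2.01 in progressing against water and rose by 2.08 in regressing against progressing (SE 0.37 in each, edgeR adjusted p = 0.00934 and 0.0132). The fall of Irf2 held in each of the 6 fits with a library removed and the rise in 5, all but that without regressing replicate 1. The calls of Ifng were lost without progressing replicate 3 and, for the rise, in all 6 fits, under limma-voom (adjusted p = 0.0905) and with T-lineage scaling (adjusted p = 0.0537).

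Of the 10 genes, 2 were thus called lower in progressing against water, where 7.13% of all genes were. In regressing against progressing 2 were called higher, where 6.45% of all genes were. The list medians were -0.34 and 0.52, against -0.04 and -0.07 over all genes. The other 8 genes of the pathway did not pass in either of these comparisons. Irf1, at 149, 124 and 139 CPM in water and 44.6, 400 and 144 in progressing tumours, had its highest value in progressing replicate 2. That library had 0 counts of Ifng and the highest Cd274 of its group, at 32.5 CPM. Regressing libraries had 34.3 to 64.4 CPM of Cd274 with Irf1 at 93.5 to 114. Whether the levels of Irf1 and Cd274 go together was not tested. Socs1, a feedback inhibitor of the pathway, rose by 2.14 in regressing against water (SE 0.49, edgeR adjusted p = 0.0298), a call lost without water replicate 1 or 2 or regressing replicate 1 or 2 and under T-lineage scaling (adjusted p = 0.114). It was the 1 gene of the 10 called there, where 3.13% of all genes were called higher. The list median in that comparison was 0.001, against -0.11 over all genes.

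Levels of different genes were compared per length, on the authors' FPKM. In water the order began with Pdcd1 (21.4 ± 11.1, SD, n = 3) and Cd274 (20.0 ± 13.7) and ended with Havcr2 (2.61 ± 0.666) and Foxp3 (0.223 ± 0.266), and of the neighbours in this order only Entpd1 and Havcr2, and Havcr2 and Foxp3, had no overlap between their libraries. In progressing tumours Cd274 was first at 5.07 ± 1.95 FPKM and Pdcd1 had 1.37 ± 0.800, in the middle of 8 genes between 0.953 and 2.52 whose libraries overlapped from each to the next. In regressing tumours the order was Cd274 (14.2 ± 4.07), Tox (10.9 ± 1.61), Lag3 (8.47 ± 2.25) and Pdcd1 (6.53 ± 2.23), each overlapping with the next. Foxp3 was last in all 3 groups.

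For each of the 10 genes the closest patterns over the 9 W/W libraries were found by Pearson correlation of log2 CPM among genes averaging 5 CPM or more. These correlations describe 9 points that share 3 groups, and no test goes with them. Havcr2 was most like Flt3 (r = 0.96), Slc46a3 and Xcr1, of which Flt3 and Xcr1 are dendritic-cell genes. Cd274 was most like Gpr157 (0.99), Icosl and Plk3. Lag3 was most like Parp10 (0.98), Irf2bpl and Cd74, the invariant chain of MHC class II, while Ctla4 was most like Rab3il1 (0.94), Vcam1 and Cd300a. Pdcd1 was most like Rusc1 (0.99), Serpinb9 and Orai1. Tox was most like Flt3l (0.99), Parp8 and Kctd11, and Foxp3 was most like immunoglobulin segments, first Igkv1-135 (0.99), whose reads related segments can share. Tigit, Entpd1 and Pdcd1lg2 were most like Psenen, Htra2 and Wdr59 (0.97, 0.95 and 0.97).

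The grafts were counted in a table of their own, and no level was compared between the tables. The 8 genes tested of the 10 gave 0 calls between ATO and PBS by edgeR, where 13.9% of all 15468 genes tested were called, and DESeq2 and limma-voom also gave 0. At an unadjusted p under 0.05 there was 1, Lag3. Pdcd1 was at 15.7 and 13.8 CPM after PBS and 9.22 and 13.4 after ATO, a log2 difference of -0.38 (SE 0.34, edgeR adjusted p = 0.474). Lag3 was at 1.46 and 1.48 CPM after PBS and 0.590 and 0.329 after ATO (-1.67, SE 0.65, edgeR adjusted p = 0.101), from 5 to 22 counts a library. Cd274 was at 6.62 and 8.19 CPM after PBS and 11.7 and 11.9 after ATO (0.67, SE 0.35, edgeR adjusted p = 0.213). In these 3 genes the groups did not overlap, which held for 61.7% of all genes in a design of 2 against 2.

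The other graft values overlapped. Ctla4 was at 1.97 and 6.98 CPM after PBS and 3.25 and 13.0 after ATO, and Tox at 14.6 and 20.6 and then 22.3 and 5.79. The 2 ATO grafts lay on opposite sides of the PBS grafts for Tox. Without ATO replicate 1 both genes passed, Ctla4 at 1.51 and Tox at -1.61 (edgeR adjusted p = 0.00806 and 0.00281). That fit leaves 1 ATO library, whose spread is assumed to be that of the PBS pair. Havcr2 was at 2.11 and 2.08 CPM and then 4.57 and 1.32, Entpd1 at 9.83 and 7.72 and then 7.82 and 11.8, and Pdcd1lg2 at 1.75 in both PBS grafts and then 1.25 and 1.91. Tigit, with 1 to 6 counts a library, and Foxp3, with 1 to 6, were too low to be tested.

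In the grafts Pdcd1 was the first of the 10 per length, at 7.11 ± 0.467 FPKM (SD, n = 2) after PBS and 6.27 ± 1.80 after ATO, while Tox, next after PBS, had 2.17 ± 0.587 with no overlap. After ATO the next was Ctla4 at 3.75 ± 3.24 FPKM, and its 6.04 FPKM in replicate 2 lay above the 5 FPKM of Pdcd1 in replicate 1. Of the further lists, 0 of 23 checkpoint partners, 0 of 12 regulatory T-cell genes and 0 of 9 interferon genes passed. Of the 15 transcription factors 2 did, a share near the 13.9% over all genes: Nfatc2, a calcium-dependent activator of T cells, rose by 1.13 and Id2, an inhibitor of E proteins, fell by 1.17 (edgeR adjusted p = 0.0446 and 0.0360). Both were lost without PBS replicate 2 or ATO replicate 2, and Nfatc2 also without PBS replicate 1 and under limma-voom (adjusted p = 0.0564). The most abundant genes of the lists without a call, Lgals9 (galectin-9, a ligand of TIM-3) and Cd48 among partners, Ikzf2 and Nrp1 among regulatory genes and Ifngr1 and Jak1 in the interferon pathway, had log2 fold changes between -0.41 and 0.52.

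Markers of other cell types were also present in the grafts, and several differed between the treatments. Over all genes tested, 7.37% were called higher after ATO and 6.57% lower. The 8 macrophage genes summed to 349 to 492 CPM after PBS and 140 to 177 after ATO, with 3 called lower, and the 8 cytotoxic genes to 246 and 469 and then 187 and 108, with 2 of the 3 tested called lower. The 6 fibroblast genes summed to 244 to 489 CPM after PBS and 643 to 1666 after ATO, with 4 called higher. The 5 muscle genes summed to 187 and 15.7 CPM and then 266 and 269.7, and the 5 endothelial genes to 143 and 129 and then 182 and 249, each with 1 of 5 called higher. The 6 B-cell genes summed to 4.06 to 8.86 CPM and the 7 dendritic-cell genes to 8.66 to 14.8 CPM in the 4 grafts, with 0 called. The 6 cortical thymocyte genes summed to 1884 to 2083 CPM after PBS and 1151 to 1514 after ATO, with 2 called lower. The part of these cells in the graft values of the 10 genes was not tested.

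**Figure D4:**
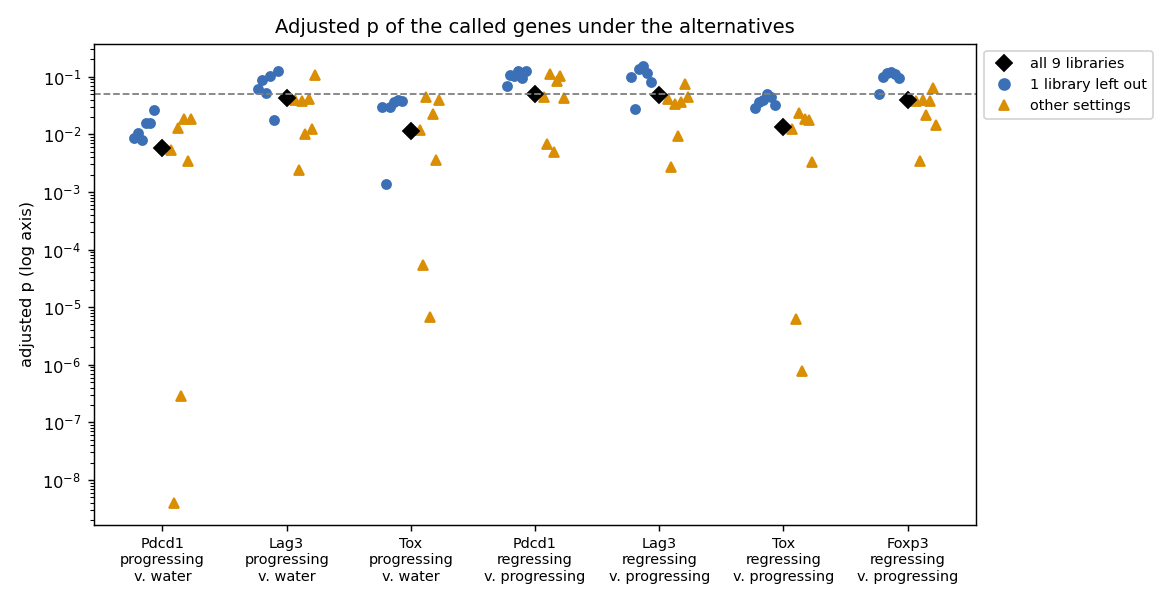
Adjusted p (log axis) of the 7 calls among the 10 genes with all libraries (diamonds), with 1 library left out (circles) and under the other settings (triangles), with the threshold of 0.05 as a dashed line. Pdcd1 and Tox in progressing against water stay under the line at each point, and the circles of Pdcd1 in regressing against progressing all lie above it.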

How the data were processed

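Per the file headers, the authors deposited whole-number counts and FPKM values side by side, in a table for W/W tumours and another for grafts. Per the submitters' processing notes, FastQC 0.10.1, cutadapt 1.9.1, HISAT2 2.0.1 and GRCm38 were named. Which program counted reads, whether it used strand and which annotation it read are not given in the sources used here. Of the W/W genes 99.4% had the coordinates of GENCODE vM21 on GRCm38, of the graft genes 2.83%, so graft coordinates were not used. The total behind the FPKM exceeded the summed counts of the W/W libraries by 0.106% to 2.33%, the most in water replicate 2.

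Counts were fitted with edgeR 4.0.16 (limma 3.58.1, R 4.3.3) after filterByExpr and TMM scaling, the 9 W/W libraries as 3 groups and the 4 grafts alone, and tested by quasi-likelihood with Benjamini-Hochberg adjustment over all 18119 and 15468 genes tested, at 0.05. CPM use TMM-scaled library sizes. The floor is at most 3 counts in each library of a group, and floors cover counting error only. Replicate libraries all differed by more than sampling noise. Alternatives were DESeq2 1.42.0, its size factors, limma-voom, no filter, T-lineage scaling, the replicate number as a block, only the compared groups, and leaving out each library.

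The members and gene lists were chosen with earlier results of these data known. The 10 members were named in every comparison, and of each further list up to 4 genes past the threshold with the largest fitted change, or, with none, the 2 of highest mean CPM. 1 gene of the interferon list is not reported here. Irf1, Rag1 and Gzmk were named after their values were seen, and the sequence elements were chosen after the promoters were.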

Additional observations from a re-analysis of the deposited data

Results flagged for a closer look

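Regressing and progressing tumours, both treated with ATO, differed by a direct test in 13 of the 76 genes tested over the 10 genes and the further lists, where 12.6% of all genes were called. Each of the 13 calls was lost without regressing replicate 1, and those of Pdcd1 and Ifng in each of the 6 fits with a library removed. Fitted in edgeR and adjusted by Benjamini-Hochberg, the log2 differences were 2.13 for Pdcd1, 2.18 for Lag3, 3.02 for Tox and 3.52 for Foxp3 among the checkpoint and regulatory T-cell genes. Among partner genes they were 4.19 for Cd226, 3.09 for Tnfrsf14, 2.97 for Cd28 and -2.88 for Cd276. Among regulatory T-cell genes, transcription factors and interferon genes they were 3.19 for Il2ra, 2.16 for Ikzf2, 3.28 for Bach2, 5.89 for Ifng and 2.08 for Irf2. The fitted value of Ifng depends on the prior count, since the progressing libraries had no count of it.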

How the results depend on the processing

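Pdcd1 and Tox in progressing against water kept direction and call under all 7 other settings and in each of the 6 fits with a library removed. The number of the 10 genes called in progressing against water, 3 in the fit reported, was 6 with DESeq2, 7 without a filter, 8 with T-lineage scaling and 2 to 4 with a library left out. In regressing against water it was 2 with DESeq2, 1 without a filter, 3 with T-lineage scaling and 0 with any library left out. In regressing against progressing it went from 4 to 1 with T-lineage scaling and 0 to 2 with a library left out, and in the grafts from 0 to 0 to 2. Over all genes, DESeq2 gave 3796, 3136 and 4037 calls in the 3 W/W comparisons (2157, 1396 and 2289 as reported), and no filter 3594, 2689 and 3621, with 3274 in the grafts (2157 as reported). In progressing against water only the compared groups gave 882 calls, and in regressing against water T-lineage scaling gave 6167. With a library left out the counts were 907 to 2557, 60 to 1190, 177 to 2000 and, in the grafts, 685 to 2420.

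Deviations of same-numbered W/W libraries correlated at -0.12 to 0.15, and 10 of 18 correlated best with their own number. These values do not settle whether the numbers pair the samples. The fit reported took no pairs, and the number was fitted as a block beside it. With the replicate number as a block, 3, 0, 3 and 0 of the 10 genes passed in the 4 comparisons, Pdcd1 being lost in regressing against progressing (adjusted p = 0.0841). Of the further genes named, Icosl, Pvrig and Izumo1r in progressing against water, Btla, Cd160 and Eomes in regressing against water, Ifng between the outcomes and Id2 and Nfatc2 in the grafts were lost too (adjusted p from 0.0636 to 0.0980). Over all genes the block gave 1405 calls in progressing against water and 1350 in the grafts. Graft numbers correlated at -0.12, and a crossed block, chosen after seeing the data, gave 3298 calls and 0 of the 10 genes.

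Values that changed sign had not passed the test in the fit reported. In regressing against water Lag3 was 0.066 with limma-voom, 0.036 without a filter, 0.13 with the block and 0.028 with only the compared groups, and T-lineage scaling gave -0.63 for Havcr2 and -0.74 for Tox. With a library left out, the ranges there were -0.33 to 0.56 for Lag3, -1.53 to 0.56 for Ctla4, -2.87 to 0.35 for Tigit, -0.081 to 0.74 for Tox and -0.44 to 0.35 for Entpd1, with the changed sign in each coming without water replicate 2. Without regressing replicate 2 Entpd1 was 0.02, and without regressing replicate 3 Lag3 was 0.13. In regressing against progressing Pdcd1lg2 was -0.12 with T-lineage scaling and -0.27 to 0.50 with a library left out, at -0.17 without progressing replicate 2. In the grafts the ranges were -0.49 to 0.11 for Pdcd1lg2, -0.48 to 2.02 for Ctla4, -0.68 to 1.10 for Havcr2, -1.61 to 0.32 for Tox and -0.18 to 0.42 for Entpd1, which was -0.02 without PBS replicate 2. The cause of these changes was not tested. Counts of 1 to 39 for Foxp3 limit its precision.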
